A study of Mus musculus with 6 samples.

Results

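Amino acid transporters of the solute carrier (SLC) families were examined in C1498, a mouse cell line of C57BL/6J background that the labels describe as acute myeloid leukemia cells. All genes whose symbols place them in the families Slc1, Slc3, Slc7, Slc36, Slc38 and Slc43 were taken, with no measured value used in the rule, but the families were picked with earlier results of these data known. There were 42 such genes among the 19938 genes that have a probe set of their own on the array, and each was represented by the probe set with the highest mean. Cells grown in DMEM with fetal bovine serum received PJ34, a small-molecule inhibitor of PARP-1, at 20 μM for 48 h, or PBS for the same time. The total RNA of 3 samples per group was read on Affymetrix Mouse Gene arrays, 1 per sample, and each value is a log2 expression value as the authors deposited it. The comparison asks which transporter genes differ in RNA level after PARP-1 inhibition. The study speaks of independent experiments without describing the cultures, so the p-values measure the spread between these arrays.

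Cells cannot make all the amino acids that they need for protein, and charged or polar amino acids cross the plasma membrane only through carriers. Some carriers use the sodium gradient to concentrate glutamine, alanine or serine inside the cell. Others exchange an internal amino acid, often glutamine, for leucine, cystine or arginine from outside. A further group sits in the lysosomal membrane, where it releases amino acids from degraded protein and reports their supply to the kinase complex mTORC1. Many of these genes are known targets of ATF4, a transcription factor that is made when amino acids run short or proteins misfold, and lymphoid and leukemic cells depend on several of them for growth.

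With PJ34, Slc1a4, Slc1a5, Slc7a1 and Slc38a9 fell and Slc43a2 rose at an adjusted p under 0.05 (limma's moderated test, Benjamini-Hochberg adjusted over all 23412 probe sets tested). The 4 that fell encode importers of neutral amino acids, glutamine and arginine and a lysosomal arginine sensor, and their levels in PJ34 cells were 0.645-fold to 0.827-fold those in PBS cells. Thus 5 of the 42 transporter genes were called, against 3.07% of all probe sets tested, shares that describe these families. By direction, 4 of 42 were lower against 1.35% of all probe sets, and 1 of 42 was higher against 1.72%. The median log2 fold change (PJ34 minus PBS) was -0.02 over the 42 genes and 0.00 over all probe sets tested. The range over the 42 ran from -0.63 to 0.36, so that no member changed 2-fold.

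The level of a gene bears on what could be called. Only 16 of the 42 probe sets had a mean above 4.42, the median over all probe sets, and all 5 called genes were among these 16. Of the probe sets tested above that level, 5.13% were called and 2.30% were called lower. Among the 16 transporters, 5 were called and 4 were lower. None of the other 26 was called, and 1 of them, Slc43a1, had an unadjusted p under 0.05 from limma. The methods' t-test, adjusted over all probe sets, called none of the 26 either, and 2 of all 42, both lower. It called 0.278% of all probe sets lower and 0.333% higher. Because these arrays hold no detection calls, an unknown share of the signal of those 26 is background.

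**Figure D1:**
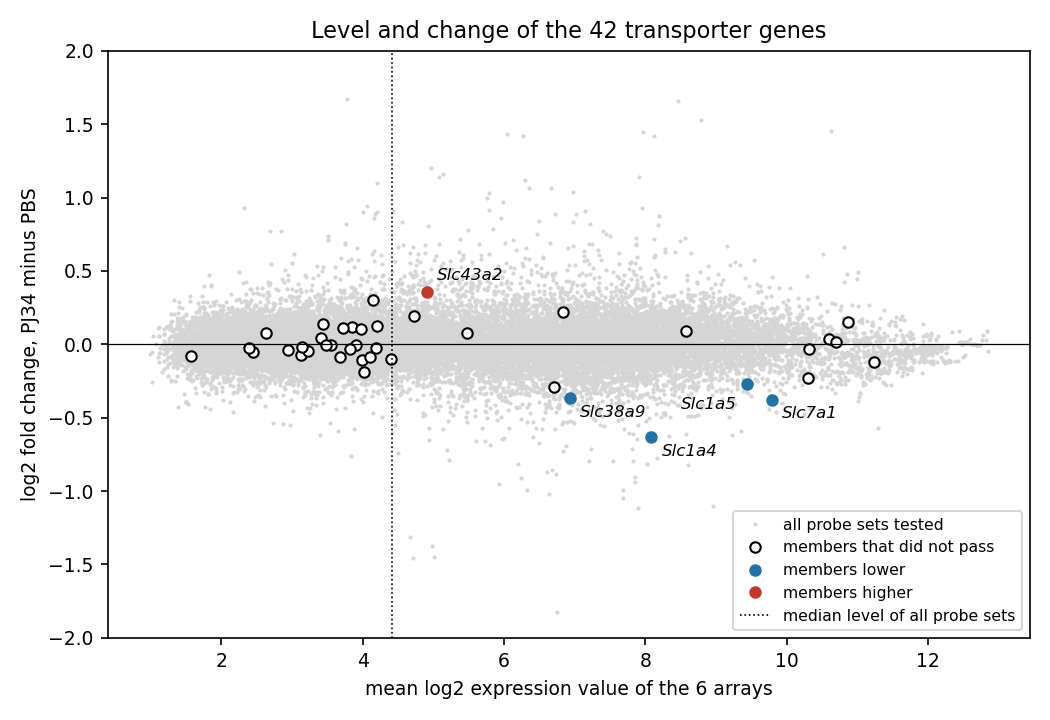
The vertical axis is the log2 fold change, PJ34 minus PBS, and the horizontal axis the log2 expression value averaged over the 6 arrays. Small grey points are the 23412 probe sets tested, circles are the 42 transporter genes, filled blue for the 4 lower, filled red for Slc43a2 and open for those that did not pass. The dotted line marks the median level of 4.42, and all 5 called genes lie to its right.

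Across the 42 genes, all 3 PJ34 values lay below all 3 PBS values for 7 genes and above them for 5. Such separation in either direction was found for 23.5% of all probe sets tested. An unadjusted p under 0.05 from limma was reached by 11 of the 42, 6 lower and 5 higher, against 16.7% of all probe sets (7.74% lower and 8.95% higher). These shares also stand beside the family counts given below, as do the 1.35% called lower and 1.72% called higher. With 3 arrays per group, an exact two-sided permutation test of a single gene gives at best p = 0.1.

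**Figure D2:**
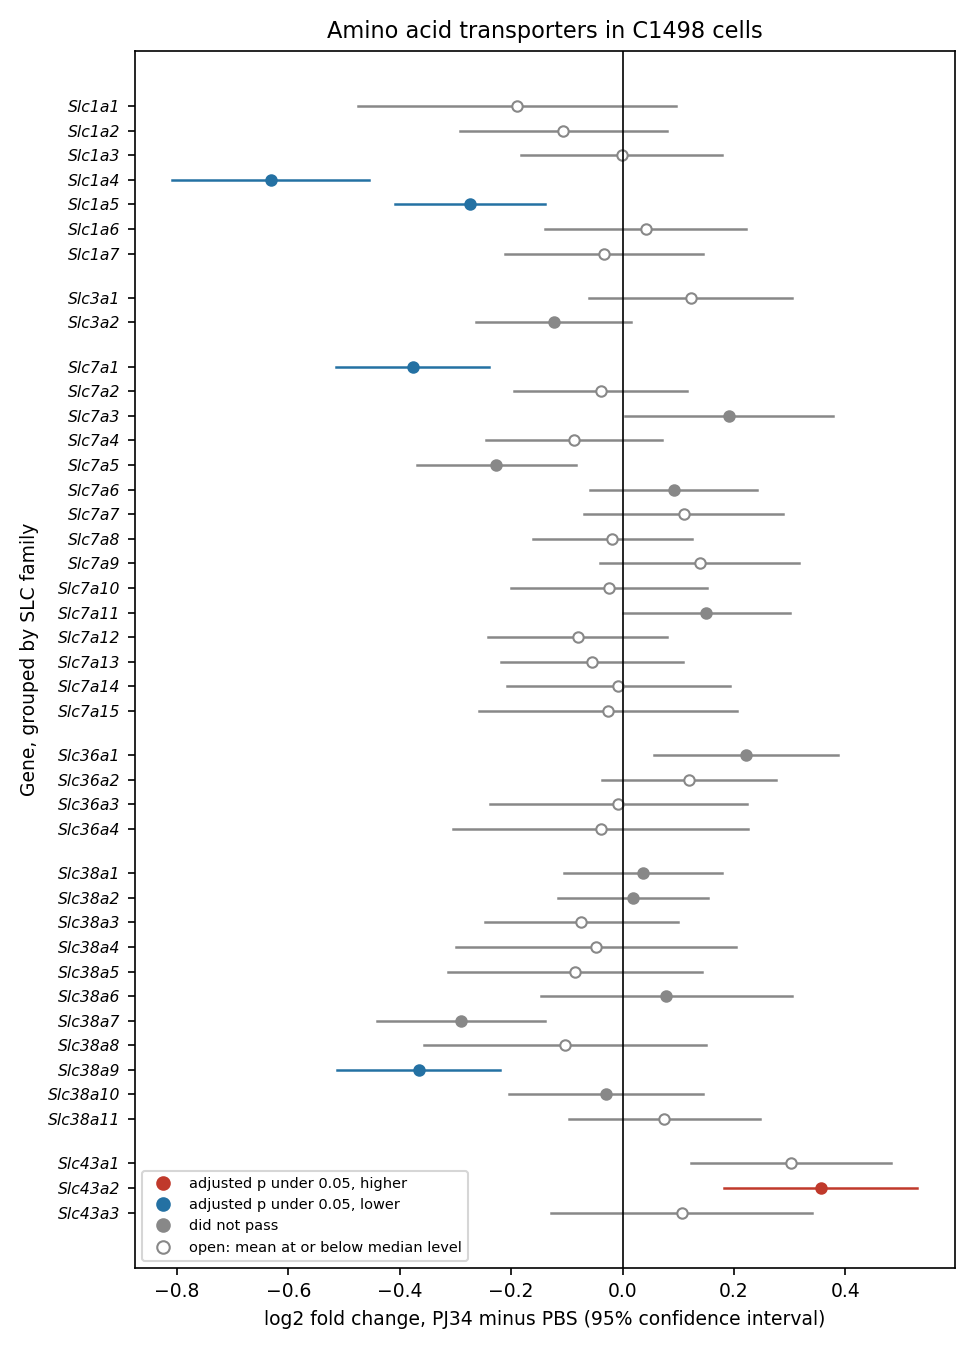
The horizontal axis is the log2 fold change, PJ34 minus PBS, drawn with its 95% confidence interval from limma for each of the 42 genes, grouped by SLC family on the vertical axis. Blue and red mark genes that fell or rose at an adjusted p under 0.05, and open circles mark genes whose mean is not above 4.42. The intervals of all open circles but Slc43a1 span 0, and Slc1a4 lies farthest from 0 at -0.63.

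The Slc1 family holds glutamate carriers and a pair of neutral amino acid exchangers. The genes that fell were that pair. Slc1a4 encodes ASCT1, which carries alanine, serine, cysteine and threonine. Its probe set, 10384539, read 8.27, 8.44 and 8.50 on the PBS arrays and 7.77, 7.83 and 7.71 on the PJ34 arrays. The lowest PBS value stood 0.44 above the highest PJ34 value. The log2 fold change was -0.63 (SE 0.077, adjusted p = 0.00607 from limma), a ratio of 0.645 with a 95% confidence interval of 0.571 to 0.729. Leaving out any 1 of the 6 arrays kept the call (adjusted p = 0.0125 to 0.0335). Of 13 other settings in all, Slc1a4 passed in 12 and missed the threshold by the methods' t-test (adjusted p = 0.0728). Slc1a5 encodes ASCT2, a main route of glutamine into growing cells. Probe set 10550332 read 9.56, 9.60 and 9.58 with PBS and 9.32, 9.32 and 9.27 with PJ34. The arrays of each group lay close together and the groups did not overlap. Its log2 fold change was -0.27 (SE 0.059, adjusted p = 0.048 from limma), a ratio of 0.827 (0.753 to 0.908). This call passed in 4 of the 13 other settings and was lost whichever array was left out (adjusted p = 0.062 to 0.175) and with the replicate number as a block (the replicate block, adjusted p = 0.111).

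The other 5 genes of the family, Slc1a1, Slc1a2, Slc1a3, Slc1a6 and Slc1a7, encode glutamate carriers known best from neurons, glia and epithelia. Their mean values over the 6 arrays ran from 3.42 for Slc1a6 to 4.01 for Slc1a1, below the median level. None passed the test, with log2 fold changes from -0.19 (Slc1a1) to 0.04 (Slc1a6). The median of the 7 genes was -0.11.

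**Figure D3:**
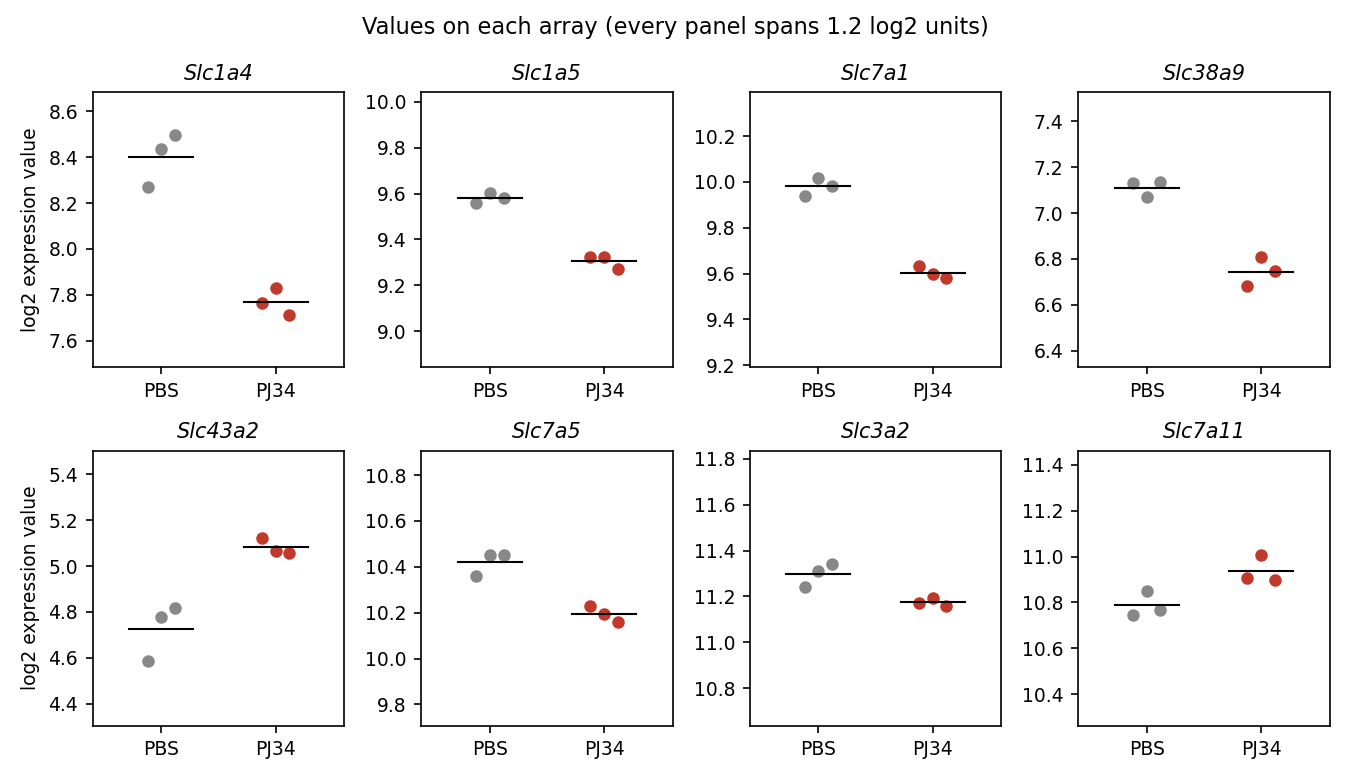
Log2 expression value (vertical axis) by array for 3 PBS samples in grey and 3 PJ34 samples in red, shown for 8 transporter genes, with a line at each group mean. Every panel covers 1.2 log2 units, so the gaps can be compared between panels. The groups do not overlap in any panel, and the gap is widest for Slc1a4.

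A DNA sequence bound by ATF4 together with C/EBP factors, the CARE, was searched as TGATGNAA on both strands in RefSeq promoters of GRCm38.p6 (250 bases before and 50 after each start). Of the 42 genes, 31 had a promoter in the table, 42 promoters in all, since some genes have several starts. No entry was matched for Slc1a5, Slc38a1, Slc7a5 and 8 others. CARE was found in 4 of these promoters, or 9.52%, and in 3.97% of all 32851 promoters. The 4 belong to 3 genes, Slc1a4, Slc7a11 and Slc7a7. The Slc7a7 promoters with CARE overlap and share a site, which was counted in each. The stretches of Slc1a4 and Slc7a11 are shown because both probe sets are bright and they differ in the direction of their values. They are written 5′ to 3′ on the gene's strand, with CARE matches in capitals.
Slc1a4 (chr11:20332710-20332757, minus strand): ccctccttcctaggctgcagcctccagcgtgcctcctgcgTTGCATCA
Slc7a11 (chr3:50443614-50443719, minus strand): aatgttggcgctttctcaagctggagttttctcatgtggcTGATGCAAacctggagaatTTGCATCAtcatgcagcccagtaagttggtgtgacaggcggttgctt
In Slc1a4 the match lies on the reverse strand across the annotated start, from base -4 to base 4. In Slc7a11 there are matches on both strands, at bases -66 to -59 and -47 to -40. A match of letters describes the sequence only. Slc1a4 fell with PJ34, while Slc7a11 did not pass the test and its values were higher with PJ34.

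Slc7a11 encodes xCT, which takes up cystine in exchange for glutamate and so feeds glutathione synthesis. Its values were 10.75, 10.85 and 10.77 with PBS and 10.91, 11.01 and 10.90 with PJ34. All PJ34 values were above the PBS values, by a small margin. The log2 fold change was 0.15 (SE 0.066, adjusted p = 0.297 from limma), a ratio of 1.11 (1.00 to 1.23), which did not pass. Of the 13 other settings it passed in 1, the fit with both an intensity trend and robust eBayes (limma, adjusted p = 0.0473).

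The cationic amino acid carriers of the Slc7 family take up arginine, lysine and ornithine without a partner protein. Slc7a1, which encodes CAT1, the carrier of most dividing cells, fell. Its probe set, 10535852, read 9.94, 10.02 and 9.98 with PBS and 9.63, 9.60 and 9.58 with PJ34. The groups were 0.31 apart at their nearest values. The log2 fold change was -0.38 (SE 0.060, adjusted p = 0.0155 from limma), a ratio of 0.77 (0.70 to 0.847). Slc7a1 passed in 7 of the 13 other settings, among them the fits that left out PBS replicate 1 (adjusted p = 0.0475) or PJ34 replicate 2 (adjusted p = 0.0351). Its call was lost when PBS replicate 2, PBS replicate 3, PJ34 replicate 1 or PJ34 replicate 3 was left out (adjusted p = 0.0528 to 0.0849) and with the replicate block (adjusted p = 0.0555). Slc7a3, which encodes CAT3, read 4.47, 4.76 and 4.66 with PBS and 4.86, 4.82 and 4.79 with PJ34, or 0.19 higher on the log2 scale (SE 0.082). It lay just above the median level and did not pass (limma, adjusted p = 0.286). Slc7a2 (-0.04), Slc7a4 (-0.09) and Slc7a14 (-0.01) lay below that level and did not pass.

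A stretch of the Slc7a1 promoter is shown because this gene fell and holds matches to other motifs, TGANTCA of AP-1 and TGACNNNGC, the antioxidant response element bound by NRF2. Both are in capitals, the latter on the reverse strand, in the upstream one of its 2 annotated promoters.
Slc7a1 (chr5:148399905-148400067, minus strand): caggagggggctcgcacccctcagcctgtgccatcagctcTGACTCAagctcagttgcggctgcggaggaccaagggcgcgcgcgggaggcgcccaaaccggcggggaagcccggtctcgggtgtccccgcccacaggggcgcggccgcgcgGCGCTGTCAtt
AP-1 letters were found in 4 of the 42 transporter promoters (9.52%) and in 7.81% of all promoters. The antioxidant element was found in 6 (14.3%) and in 12.4% of all. These 6 belong to 5 genes, since overlapping Slc7a6 promoters hold the same site. The E-box CACGTG, read by MYC and TFEB, was found in 7 (16.7%), of Slc1a6, Slc1a7, Slc36a1, Slc38a5, Slc38a7, Slc43a1 and Slc7a14, and in 7.15% of all promoters. The promoters of Slc38a9 and Slc43a2 held none of these motifs.

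The remaining Slc7 genes encode light chains, most of which reach the cell surface bound to a heavy chain. The heavy chain of most of them is Slc3a2, also known as CD98, and that of Slc7a9 and Slc7a13 is Slc3a1. Slc3a2 read 11.24, 11.31 and 11.34 with PBS and 11.17, 11.19 and 11.16 with PJ34. Its groups were separated by a narrow gap and the log2 fold change of -0.12 (SE 0.061) did not pass (limma, adjusted p = 0.363). Slc7a5, or LAT1, exchanges leucine and other large neutral amino acids and is the light chain best known from activated lymphocytes. It read 10.36, 10.45 and 10.45 with PBS and 10.23, 10.19 and 10.16 with PJ34, with no overlap. The log2 fold change was -0.23 (SE 0.062, 95% confidence interval -0.37 to -0.08), at an adjusted p of 0.101 from limma. Slc7a5 passed, as lower, without dim probe sets (adjusted p = 0.0281) and in the fit that combined an intensity trend with robust eBayes (adjusted p = 0.00453).

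Slc7a6, the light chain of an exchanger of arginine for glutamine, read 8.47, 8.50 and 8.61 with PBS and 8.65, 8.59 and 8.61 with PJ34. The groups overlapped (log2 fold change 0.09, SE 0.066). Slc7a7, Slc7a8, Slc7a9 and Slc7a10, the light chains of further carriers, and the more distant Slc7a12, Slc7a13 and Slc7a15 lay below the median level, with log2 fold changes from -0.08 (Slc7a12) to 0.14 (Slc7a9). None of them passed, and neither did Slc3a1 (0.12). Over the 15 Slc7 genes the median was -0.02, with 1 lower and none higher, and 2 in each direction had an unadjusted p under 0.05 from limma. The methods' t-test called 1 lower, Slc7a1, and none higher. Of the 2 Slc3 genes none passed, by limma or the methods' t-test, and neither had an unadjusted p under 0.05.

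Slc38 carriers transport glutamine and other small neutral amino acids with sodium, at the cell surface or at the lysosome. The bright surface carriers did not pass. Slc38a1 read 10.57, 10.60 and 10.57 with PBS and 10.56, 10.68 and 10.62 with PJ34, and a second probe set of the gene, at 8.59 to 8.99, had a log2 fold change of 0.01 beside 0.04 for the first. Slc38a2, a carrier whose synthesis is known to rise when amino acids are scarce, read 10.68, 10.70 and 10.70 with PBS and 10.71, 10.75 and 10.68 with PJ34. The 95% confidence intervals of the log2 fold change were -0.11 to 0.18 for the first probe set of Slc38a1 and -0.12 to 0.15 for Slc38a2. For the second probe set of Slc38a1 the interval was wider, -0.25 to 0.27. These intervals rest on the spread between these arrays.

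The call in this family was at the lysosome. Slc38a9, a lysosomal carrier that senses arginine for mTORC1, fell. Its probe set 10407192 read 7.13, 7.07 and 7.13 with PBS and 6.68, 6.81 and 6.75 with PJ34. All PJ34 values were below the PBS values, and the log2 fold change was -0.37 (SE 0.064, adjusted p = 0.0222 from limma), a ratio of 0.776 (0.701 to 0.859). A second probe set of Slc38a9, with mean values of 5.31 and 5.17, differed by -0.14 (SE 0.080) with overlapping groups and did not pass (limma, adjusted p = 0.446). With the mean of both probe sets in place of the brighter one, the log2 fold change was -0.25 and the gene did not pass (adjusted p = 0.062). It passed in 4 of the 13 other settings and, of the fits with 1 array less, only without PJ34 replicate 2 (adjusted p = 0.0296, against 0.0741 to 0.0996 in the others). Slc38a7, which exports glutamine from lysosomes, read 6.88, 6.87 and 6.82 with PBS and 6.66, 6.53 and 6.51 with PJ34. Its log2 fold change of -0.29 (SE 0.066) narrowly missed the threshold (adjusted p = 0.0569 from limma). It passed in 3 of the 13 other settings.

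The remaining Slc38 genes did not pass. Slc38a10 was bright at 10.3 in both groups (log2 fold change -0.03) and Slc38a6 lay at 5.44 and 5.52 (0.08). Slc38a3, Slc38a4, Slc38a5, Slc38a8 and Slc38a11 lay below the median level, between -0.10 and 0.08 on the log2 scale. The median of the 11 genes was -0.05, with 1 lower and none higher. Limma's unadjusted p was under 0.05 for 2 lower and none higher, and the methods' t-test called none.

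Slc36 genes encode carriers that move small amino acids with protons, and Slc36a1, or PAT1, is known from lysosomes. Slc36a1 read 6.69, 6.76 and 6.71 with PBS and 7.05, 6.93 and 6.84 with PJ34. The groups did not overlap, but the log2 fold change of 0.22 (SE 0.072) did not pass (limma, adjusted p = 0.159). Slc36a4, or PAT4, read 3.28, 3.13 and 3.22 with PBS and 3.44, 3.09 and 2.97 with PJ34. Its groups overlapped, with the highest and the lowest value both from PJ34, and Slc36a2 and Slc36a3 were below the median level too. None of the 4 genes passed, with an unadjusted p under 0.05 for 1 from limma and none by the methods' t-test. The family median was 0.06.

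The only gene that rose among the 42 was in the Slc43 family. Slc43a2 encodes LAT4, which lets leucine and other large neutral amino acids pass down their gradient. Probe set 10378649 read 4.59, 4.78 and 4.81 with PBS and 5.12, 5.07 and 5.06 with PJ34. Every PJ34 value was above the PBS values. Slc43a2 rose by 0.36 on the log2 scale (SE 0.076, limma's adjusted p = 0.0471), a ratio of 1.28 (1.13 to 1.44). The call passed in 3 of the 13 other settings and was lost whichever array was left out (adjusted p = 0.0843 to 0.143), with the replicate block (adjusted p = 0.0994), by the methods' t-test (adjusted p = 0.146) and with arrays centred on their medians (adjusted p = 0.0652). Slc43a1, the related LAT3, read 3.96, 3.98 and 4.05 with PBS and 4.15, 4.37 and 4.38 with PJ34. The difference of 0.30 (SE 0.079), at a level below the median, did not pass (limma, adjusted p = 0.0854), although the groups did not overlap. Slc43a3, known as a carrier of purine nucleobases rather than of amino acids, had overlapping groups (0.11). The median of the 3 Slc43 genes was 0.30, and limma called 1 higher and none lower, with an unadjusted p under 0.05 for 2 higher and none lower. The methods' t-test called none of the 3.

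The 5 called genes did not keep their calls over the 13 other settings. Their direction was all but fixed beforehand, because their groups did not overlap and several settings use the same difference of means. In number of settings passed the 5 genes ranked from Slc1a4 (12) through Slc7a1 (7), Slc38a9 and Slc1a5 (4 each) to Slc43a2 (3).

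**Figure D4:**
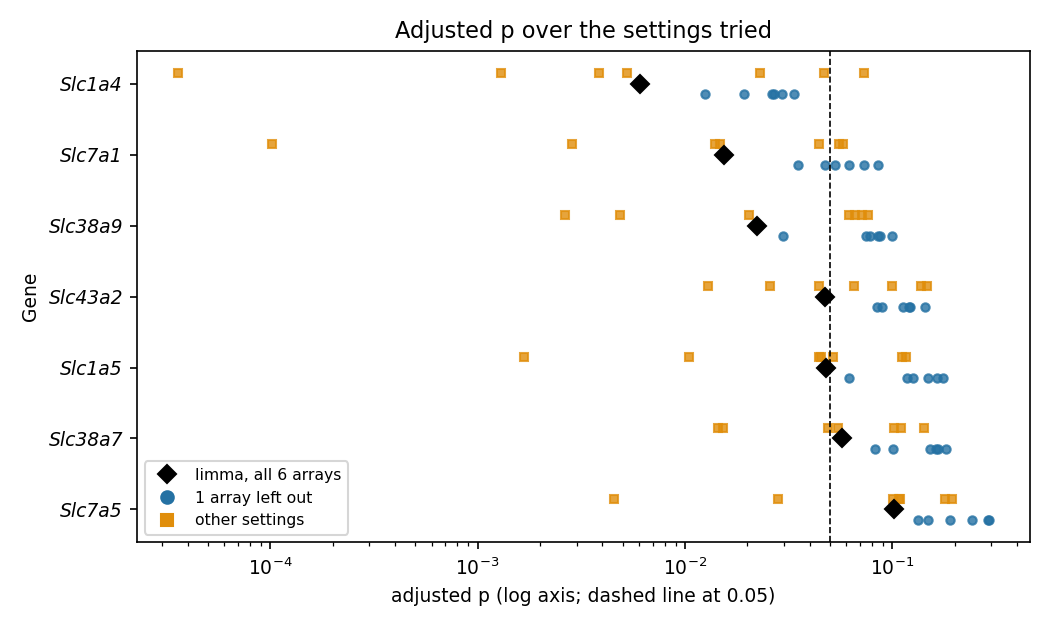
Adjusted p (horizontal log axis, dashed line at 0.05) of 7 transporter genes (vertical axis) from limma on all 6 arrays (black diamonds), from the 6 fits that leave out 1 array (blue) and from the other settings (orange). The blue points of Slc1a4 all lie left of the line, and those of Slc1a5, Slc43a2, Slc38a7 and Slc7a5 all lie right of it.

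Further carriers of amino acids and peptides, from the Slc6, Slc15, Slc16, Slc17, Slc25, Slc32 and Slc66 families and Ctns, were read as a list. Of 32 measured, 2 fell and 1 rose, beside 1.35% and 1.72% of all probe sets tested. Above the median level, where 15 of the 32 lay, 5.13% of probe sets were called in either direction. Slc6a9, the glycine carrier GlyT1, fell from a mean of 10.49 to 10.02 (log2 fold change -0.47, SE 0.061, adjusted p = 0.00724 from limma). Slc6a19, a neutral amino acid carrier known from gut and kidney, fell from 9.14 to 8.74 (-0.40, SE 0.066). The peptide carrier Slc15a2 rose from 4.26 to 4.68 (0.41, SE 0.067). Its PBS mean lay below the median level, where an unknown share of the signal is background. Slc15a2 counts as above that level only by its mean over all arrays, which lay just above it. The list median was 0.00.

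The RNA of Atf4 itself fell on these arrays, from a mean of 9.59 to 9.27 (log2 fold change -0.32, SE 0.059, adjusted p = 0.0247 from limma). The arrays do not measure the ATF4 protein. Of 27 measured genes among ATF4, its inducers and its known targets, 11 fell and none rose, with a median of -0.25. Of all probe sets 1.35% fell, and 2.30% of those above the median level, where 24 of the 27 lay. Limma's unadjusted p was under 0.05 for 18 lower (7.74% of all probe sets) and none higher, and the methods' t-test called 5 lower (0.278%) and none higher. Besides Atf4 itself, the genes that fell by most were Trib3 (-1.11), Nupr1 (-0.91), Chac1 (-0.91) and Ddit3 (-0.78), all of the stress response. The others were the enzymes Mthfd2 (-0.47), Aldh18a1 (-0.44) and Psph (-0.37), the translation repressor Eif4ebp1 (-0.41), the leucine sensor Sesn2 (-0.40) and the factor Cebpg (-0.34). Trib3 is among the genes that the study selected on these arrays and is not independent evidence of a direction. Myc (0.10) and Nfe2l2, which encodes NRF2 (0.11), other factors that bind transporter genes, did not pass. Of the 18 measured factors, Atf4 and Ddit3 fell, and Fos (1.16) and Nfatc2 (0.34) rose, 4 of 18 called beside 3.07% of all, with a median of 0.08. Above the median level, where 15 of the 18 lay, 5.13% of probe sets were called. Fos is also among the genes the study selected.

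Downstream of transport, 36 genes of amino acid sensing by mTORC1 were measured. The leucyl-tRNA synthetase Lars (-0.62) and Sesn2 fell, and the GTPase Rraga (0.35) and the mTORC1 inhibitor Tsc2 (0.32) rose, 4 of 36 called beside 3.07% of all, with a median of -0.01. Above the median level, where 34 of the 36 lay, 5.13% of probe sets were called. Of 24 genes that use glutamine, glutamate, cystine or arginine, glutamine synthetase Glul rose from 7.88 to 8.39 (0.51, SE 0.070, adjusted p = 0.00869 from limma). The transaminases Gpt2 (-0.54) and Bcat2 (-0.36) and glutathione synthetase Gss (-0.31) fell. These were 4 of 24 called beside 3.07% of all and 5.13% of those above the median level, where 20 of the 24 lay. The median of these genes was -0.08.

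**Figure D5:**
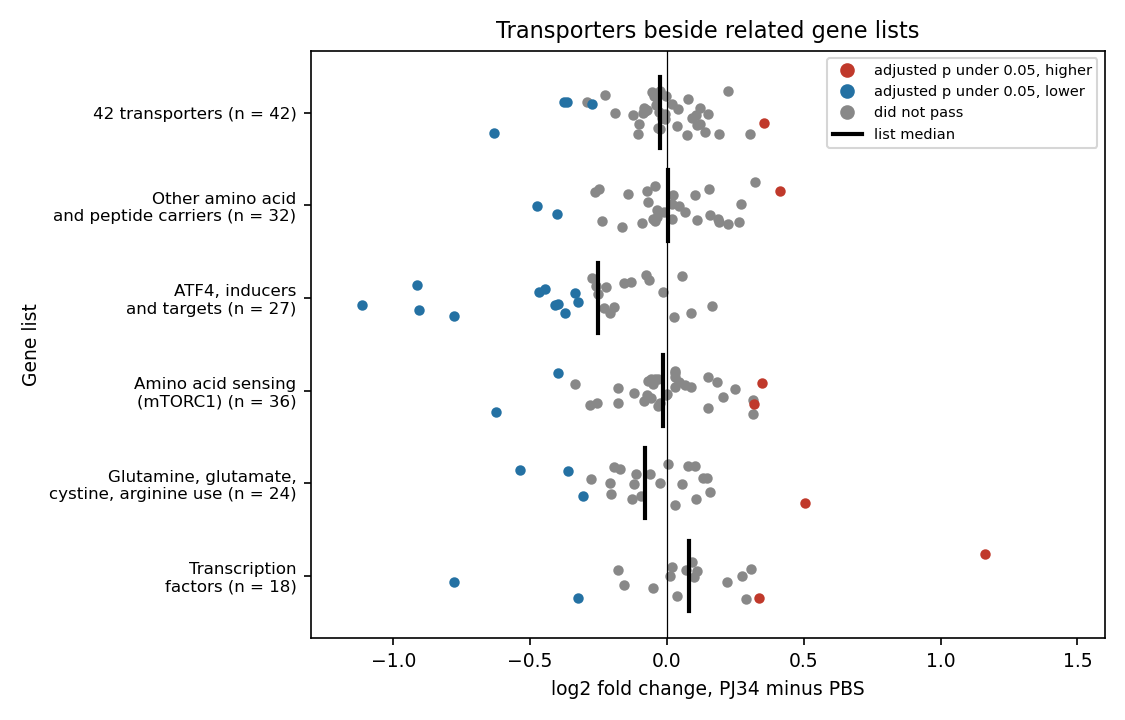
The 42 transporters and the measured genes of 5 related lists, 1 line of points per list (vertical axis), placed along the horizontal axis by log2 fold change (PJ34 minus PBS). Points that passed are red (higher) or blue (lower), the rest are grey, and a black bar gives each median, -0.25 for ATF4 with its inducers and targets and -0.02 for the transporters. Some genes stand in more than 1 list.

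Markers of blood cell types were read on the same arrays. Of 21 measured myeloid markers, Ptprc, which all white blood cells carry, Cebpa, Cebpe, Csf2ra, Fcgr1 and Cd68 lay above the median level, 6 in all. The other 15 lay below it, among them Spi1 (3.43 with PBS and 3.45 with PJ34), Mpo (3.88 and 3.75) and Csf1r (3.70 and 3.59). Of 22 measured T and NK markers, 10 lay above the median level, namely Cd3d, Cd3e, Cd3g, Cd28, Cd7, Zap70, Lat, Klrk1, Prf1 and Bcl11b. Cd3e (10.38 and 10.56) and Cd3g (11.10 and 11.06) were far above it and Cd3d (4.81 and 4.71) just above. The other 12 lay below it, among them Cd247, Cd2, Cd5, Thy1, Cd8a and Cd8b1. Each list thus had markers on both sides of the median level, but at unlike heights. Of the myeloid markers above it, Ptprc lay at 10.61 and 10.67 and Fcgr1 at 6.82 and 7.45. Cebpa (4.93 and 4.79), Cebpe (4.83 and 4.82), Csf2ra (4.71 and 4.72) and Cd68 (4.72 and 5.23) lay closer to it. Of the T and NK markers above it, Zap70 had mean linear values of 173 with PBS and 144 with PJ34, and Lat 190 and 194. On that scale Fcgr1 had 113 and 176. Bcl11b (75.5 and 60.3), Klrk1 (29.1 and 31.0) and Prf1 (23.5 and 24.0) were lower. The markers did not settle the lineage, and the name myeloid leukemia is that of the labels. Among the T and NK markers, Cd7 (1.66), Cd28 (1.44), Gzma (0.90) and Cd4 (0.62) rose and Bcl11b (-0.33) fell on the log2 scale, with a list median of 0.05. By limma's adjusted p, 4 of the 22 thus rose and 1 fell, beside 1.72% and 1.35% of all probe sets tested. Above the median level, where 10 of the 22 lay, 5.13% of probe sets were called in either direction. Gzma and Cd4 are among the 12 below the median level, where an unknown share of the signal is background. Cd7 and Cd28 are among the genes the study selected on these arrays and are not independent evidence of a direction. The sum of the linear values of the list was 4459 to 4640 on the PBS arrays and 5256 to 5447 on the PJ34 arrays. Most of that difference lay in Cd7, with mean linear values of 199 and 629, and Cd28, with 151 and 412, so the sum does not describe the other markers. For the 21 myeloid markers, of which Fcgr1 (0.63) and Cd68 (0.51) rose, the sums were 1909 to 1968 and 1990 to 2179. Most of each sum was Ptprc, with mean linear values of 1563 and 1631. The 2 of 21 that rose stand beside 1.72% of all probe sets tested. The sums of 8 B cell markers (78.1 to 83.1 and 79.6 to 85.3), 8 erythroid and megakaryocyte markers (1327 to 1386 and 1330 to 1425, Ppbp higher) and 7 fibroblast markers (134 to 137 and 119 to 143) overlapped between the groups. Most of the erythroid and megakaryocyte sum was Tfrc (mean linear values of 1247 and 1267), so it does not describe the other markers. Ppbp, 1 of 8 called higher beside 1.72% of all probe sets, had mean linear values of 4.15 and 5.11. It lay below the median level, where an unknown share of the signal is background. In bulk RNA, fewer cells of a type and less RNA per cell cannot be told apart. The part of the T and NK or myeloid markers in the transporter results was not tested.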

How the data were processed

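RNA of C1498 cells was measured on 6 Affymetrix Mouse Gene arrays, 3 PJ34 and 3 PBS, grouped by the sample titles. The authors deposited log2 expression values, made with Affymetrix Expression Console 1.3.1 and RMA per the labels, which corrects background, quantile normalizes and summarises probe sets. They were used as deposited. Medians of the arrays were 4.41 to 4.46, and correlations were 0.992 to 0.995 within groups. The platform's gene table names 21789 of 35556 probe sets by 1 gene and 1621 by several. With 2 more that the study's tables name, 23412 were compared with limma 3.58.1 in R 4.3.3 (two-sided, adjusted by Benjamini-Hochberg, called at 0.05), a fit that was tested on simulated data. The 42 genes had 44 probe sets. All array values are given for called genes and a fixed list of main transporters. Others are given by range, with those at an unadjusted p under 0.05 named. Of the related lists, called genes are named. The gene families and lists were chosen with earlier results of these data known, and the genes within the families by symbol. Promoters are from RefSeq, GRCm38.p6. The genome build behind the probe sets is not given in the sources used here. The number of arrays limits the precision. Alternatives were all probe sets, no dim probe sets, median centring, a variance trend, the methods' t-test, a replicate block, leaving out each array and averaging probe sets.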

Additional observations from a re-analysis of the deposited data

How the results depend on the processing

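The number of transporter genes called depended on the fit. The share of all probe sets called was taken only for the main fit and the methods' t-test. The counts of the other fits thus cannot be set beside such a share. The direction of the 5 called genes is no test of the fits, because their groups did not overlap. With all probe sets of the array tested, 1 gene was lower and 0 higher. Centring each array on its median gave 4 lower, with Slc38a7 in place of Slc1a5, and 0 higher. An intensity trend with robust eBayes gave 6 lower and 2 higher, and leaving out dim probe sets 6 lower and 1 higher, with fewer genes tested. The methods' t-test gave 2 lower, Slc7a1 and Slc1a5, and 0 higher, beside 0.278% and 0.333% of all probe sets. Leaving out 1 array gave 1 to 3 lower and 0 higher. Averaging the probe sets of a gene gave 3 lower and 1 higher. Apart from these constructions, the cause was not tested. Where the count of higher genes was 0, limma's unadjusted p on all arrays was under 0.05 for 5 higher genes. Same-numbered arrays of the groups deviated together with correlations of -0.01, 0.13 and -0.01, so the numbers were not taken to pair them. With the replicate block, 1 gene, Slc1a4, was lower and 0 higher. Without dim probe sets the family medians became -0.45 (Slc1), -0.12 (Slc3), 0.22 (Slc36) and 0.09 (Slc7), over the few genes left. For the 26 transporters not above the median level, the unknown share of background signal limits what these arrays can show.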
